A study of Mus musculus with 2 samples.

Results

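The metallothionein genes *Mt1*, *Mt2* and *Mt3* were described in single retinal cells of 1 WT mouse library and 1 ND6 mutant library. The 3 genes were taken by symbol from the 32285 genes of the count tables, where each was listed 1 time. Both libraries were made from retina of male mice of the C57BL/6J strain at 7 months of age, and neither had a treatment in its labels. The number of mice behind each library is not given in the labels. The WT library carried the genotype WT, and the ND6 library carried the genotype ND6, which the study describes as a missense mutation of the mtDNA-encoded complex I subunit ND6, homoplasmic throughout the body. With 1 library per genotype there was no spread between mice, so no test was possible, and every interval below is a 95% interval that covers counting error only. A difference between the libraries can therefore not be told apart from a difference between mice, dissections or runs.

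Metallothioneins are small, cysteine-rich cytosolic proteins that bind zinc and copper, and they buffer these metals and scavenge reactive oxygen species. *Mt1* and *Mt2* are induced together by zinc through the metal-sensing transcription factor MTF-1 and also by glucocorticoids and cytokines, whereas *Mt3* was first described in brain and is less responsive to metals. In the eye the retinal pigment epithelium (RPE), the pigmented sheet behind the photoreceptors, is known as a zinc-rich tissue that makes metallothioneins.

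In the GENCODE M21 annotation of mm10 (GRCm38), the 3 genes lay in 1 cluster on the plus strand of chromosome 8 together with their neighbour *Mt4*. *Mt3* spanned chr8:94152607-94154146, *Mt2* chr8:94172664-94173568 and *Mt1* chr8:94179082-94180327, each in 3 exons. *Mt4*, at chr8:94137197-94139031, had 0 UMIs in either library over all barcodes, which allows a level of up to 0.0385 UMIs per 1000000 UMIs (CPM) in WT and 0.0373 CPM in ND6. An antisense gene, *Gm45774*, overlaps the *Mt2* gene on the minus strand and held 11 UMIs in WT and 7 in ND6 over all barcodes.

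The coding sequences of the 3 genes are shown because the cysteine codons define the family and because near-identical paralogs could share reads. They were read from the GENCODE M21 transcripts Mt1-201, Mt2-201 and Mt3-201, 5′ to 3′, with cysteine codons in capitals.
Mt1: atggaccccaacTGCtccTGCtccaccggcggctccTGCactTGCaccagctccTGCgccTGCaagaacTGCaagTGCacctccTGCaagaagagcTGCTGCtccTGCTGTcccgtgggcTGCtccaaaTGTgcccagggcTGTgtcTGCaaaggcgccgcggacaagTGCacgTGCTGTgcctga
Mt2: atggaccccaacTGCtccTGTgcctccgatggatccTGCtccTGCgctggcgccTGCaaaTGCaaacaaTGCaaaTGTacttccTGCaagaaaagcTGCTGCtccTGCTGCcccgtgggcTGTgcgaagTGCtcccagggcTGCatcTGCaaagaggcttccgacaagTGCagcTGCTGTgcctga
Mt3: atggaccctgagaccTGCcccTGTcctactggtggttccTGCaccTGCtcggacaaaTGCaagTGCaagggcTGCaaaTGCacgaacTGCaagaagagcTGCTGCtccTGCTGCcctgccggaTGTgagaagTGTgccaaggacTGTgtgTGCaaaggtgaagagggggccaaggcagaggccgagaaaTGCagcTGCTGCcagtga
Each of the 3 coding sequences held 20 cysteine codons, of which 16 were TGC and 4 were TGT, among 61 codons in *Mt1* and *Mt2* and 68 in *Mt3*. *Mt1* and *Mt2* were identical at 79.6% of aligned coding bases, *Mt2* and *Mt3* at 75.3% and *Mt1* and *Mt3* at 73.7%. The libraries were read from the 3′ end, where the paralogs differed more. Over the last 150 bases of the transcripts, no pair of the 3 genes shared a run of more than 10 bases.

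The windows of 250 bases upstream of the RefSeq transcript starts (GRCm38.p6, plus strand) of *Mt1* and *Mt2* are printed because these genes are the zinc-induced pair. Capitals mark the metal response element core that MTF-1 recognises, searched as TGCACNC or TGCGCNC on both strands.
Mt1 chr8:94178839-94179088: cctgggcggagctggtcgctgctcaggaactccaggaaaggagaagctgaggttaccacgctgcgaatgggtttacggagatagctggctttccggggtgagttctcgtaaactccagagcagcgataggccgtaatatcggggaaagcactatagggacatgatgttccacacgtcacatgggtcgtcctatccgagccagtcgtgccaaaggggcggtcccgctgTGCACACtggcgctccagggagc
Mt2 chr8:94172368-94172617: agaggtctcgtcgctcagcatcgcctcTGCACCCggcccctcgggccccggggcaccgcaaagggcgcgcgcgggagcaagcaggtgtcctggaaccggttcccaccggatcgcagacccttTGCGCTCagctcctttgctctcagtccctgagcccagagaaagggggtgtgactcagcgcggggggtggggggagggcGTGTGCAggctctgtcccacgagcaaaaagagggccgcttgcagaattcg
The *Mt1* window held 1 match, the *Mt2* window 3 and the window of *Mt3* 0. Among 32851 promoter windows of the same length, 21.4% held at least 1 match and 1.26% held at least 3. In the 5′ UTRs of the GENCODE M21 transcripts, the core occurred another 4 times in *Mt1*, 3 times in *Mt2* and 3 times in *Mt3*. No share over all genes was counted for 5′ UTRs. The *Mt2* transcript starts at 94172664, past the end of its window at 94172617, and the bases between were not searched. A match is a description of the letters and was not tested as a binding site.

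A barcode counted as a cell when it held more than 400 UMIs (unique molecular identifiers, 1 per captured transcript) from more than 200 genes and no more than 20% of its UMIs were mtDNA-encoded. The mtDNA limit alone took out 10647 of 23176 WT barcodes and 3861 of 22256 ND6 barcodes. This left 12529 cells with a median of 1878 UMIs in WT and 18395 cells with a median of 1416 UMIs in ND6, and 59 cell barcodes occurred in both libraries. Class sizes and shares below hold only after this limit. The cells fell into 26 clusters, and *Mt1*, *Mt2* and *Mt3* were left out of the clustering so that the classes did not rest on them. By markers, the clusters were rod-like (10109 WT and 13821 ND6 cells), cone-like (630 and 1134), RPE-like (315 and 945), bipolar-like (233 and 639), amacrine-like (79 and 311), macrophage- or microglia-like (259 and 141), Müller glia-like (36 and 84) and red blood-like (78 and 20). One cluster of 790 WT and 1300 ND6 cells, led by *Nefl*, *Bc1* and *Glul*, stayed unnamed, and no cluster met the rule for horizontal or retinal ganglion cells. With no mtDNA limit, an unnamed cluster led by the same genes held 1845 WT and 1308 ND6 cells, and another 171 and 494. A further cluster led by them, which then met the rule for Müller glia, held 1971 and 1566. The RPE-like class consisted of clusters that raised 7 of the 8 RPE markers, *Rpe65*, *Ttr*, *Rgr*, *Lrat*, *Pmel*, *Tyrp1* and *Dct*, but not *Best1*.

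RPE-like cells carried by far the most metallothionein RNA in both libraries. Their level of *Mt1* was 11866 CPM (11706 to 12027) in WT and 11077 CPM (10919 to 11237) in ND6, which made it the gene of rank 5 and 7 by level among all genes in these cells. *Mt3* stood at 2523 CPM (2449 to 2597) in WT and 1856 CPM (1791 to 1922) in ND6. *Mt2* stood at 1988 CPM (1923 to 2054) in WT and 1586 CPM (1527 to 1648) in ND6. Thus in RPE-like cells *Mt1* was the most abundant of the 3 by UMIs, followed by *Mt3* and then *Mt2* in each library, on a scale that counts captured 3′ ends and needs no length correction. Although *Mt1* was kept out of the clustering, it was among the 10 genes with the largest fold over the other cells in each of the RPE-like clusters, beside *Trf*, *Ttr*, *Rgr*, *Ptgds*, *Rdh5* and *Rpe65*.

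**Figure D1:**
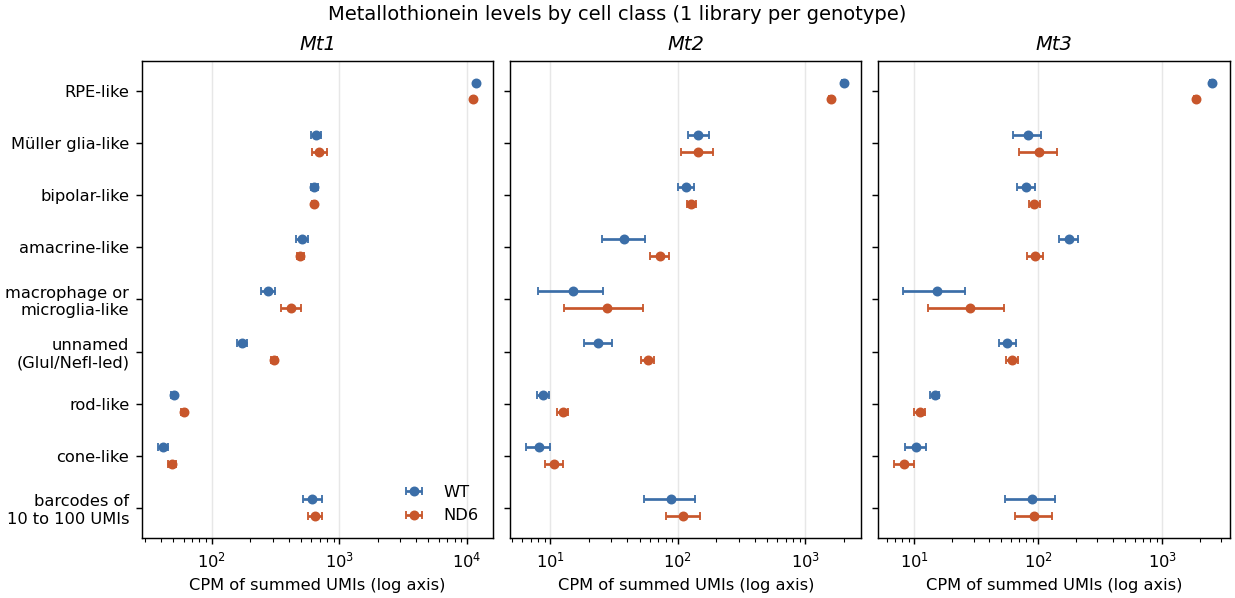
Level of *Mt1*, *Mt2* and *Mt3* as CPM of summed UMIs (x axes, log scale) in each cell class (rows) of the WT library (blue) and the ND6 library (orange). Points are the levels of 1 library each and bars are exact 95% Poisson intervals. RPE-like cells lie to the right of every other class for all 3 genes, and rod-like and cone-like cells lie to the left of the barcodes of 10 to 100 UMIs.

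The next highest class for *Mt1* was Müller glia-like, with 652 CPM (595 to 713) in WT and 699 CPM (612 to 794) in ND6. Müller glia are the radial support cells of the retina. Bipolar-like cells, the interneurons that relay photoreceptor signals, had 636 CPM (599 to 675) and 633 CPM (608 to 658), so that the intervals of these neighbours in the order overlapped in each library. Amacrine-like cells, inhibitory interneurons, followed with 509 CPM (458 to 563) in WT and 493 CPM (462 to 525) in ND6. Macrophage- or microglia-like cells had 275 CPM (241 to 313) and 419 CPM (351 to 496), an ND6 interval that overlapped that of the amacrine-like cells. The unnamed cluster had 171 CPM (156 to 188) in WT and 309.7 CPM (294 to 327) in ND6.

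Photoreceptors closed the order. Rod-like cells had 50.1 CPM (47.7 to 52.4) of *Mt1* in WT and 60.1 CPM (57.5 to 62.7) in ND6, and cone-like cells had 41.5 CPM (37.7 to 45.6) and 48.5 CPM (45.1 to 52.1). Red blood-like cells held only 20 and 8 *Mt1* UMIs. The RPE-like level of *Mt1* exceeded that of the Müller glia-like cells 18.2-fold (16.6 to 19.95) in WT and 15.9-fold (13.9 to 18.1) in ND6. It exceeded the rod-like level 237-fold (226 to 249) in WT and 184-fold (176 to 193) in ND6.

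*Mt2* followed an order close to that of *Mt1*. In both libraries, after the RPE-like cells came Müller glia-like cells with 145 CPM (119 to 175) in WT and 143 CPM (105 to 189) in ND6, and bipolar-like cells with 116 CPM (100.4 to 133) and 128 CPM (117 to 139), whose intervals overlapped. Amacrine-like cells had 37.9 CPM (25.2 to 54.7) and 72.3 CPM (60.7 to 85.3). Rod-like cells had 8.79 CPM (7.84 to 9.83) and 12.5 CPM (11.3 to 13.7), and cone-like cells 8.08 CPM (6.46 to 9.99) and 10.7 CPM (9.13 to 12.5), so these classes overlapped in each library. Macrophage- or microglia-like cells held 13 *Mt2* UMIs in WT and 9 in ND6, which placed them at 15.1 CPM (8.04 to 25.8) and 27.9 CPM (12.8 to 53.01).

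The order of *Mt3*, the family member first described in brain, differed in the inner retina. In WT the amacrine-like cells came second with 177 CPM (148 to 210.3), above the Müller glia-like cells with 81.8 CPM (62.6 to 105) and the bipolar-like cells with 79.7 CPM (66.9 to 94.3). However, 1 WT amacrine-like cell held 45.04% of the *Mt3* UMIs of its class. In ND6 the Müller glia-like (101 CPM), amacrine-like (93.6 CPM) and bipolar-like cells (92.9 CPM) had overlapping intervals. Rod-like cells had 14.6 CPM (13.4 to 15.9) of *Mt3* in WT and 11.04 CPM (9.97 to 12.2) in ND6, and cone-like cells 10.3 CPM (8.42 to 12.4) and 8.28 CPM (6.90 to 9.86). Macrophage- or microglia-like cells held 13 and 9 *Mt3* UMIs, which gave 15.1 CPM (8.04 to 25.8) in WT and 27.9 CPM (12.8 to 53.01) in ND6. Red blood-like cells held 6 *Mt3* UMIs in WT and 0 in ND6, where a count of 0 allows up to 32.5 CPM, and they held 6 and 1 *Mt2* UMIs.

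Because the RPE-like level was so high, a small number of cells held most of the metallothionein UMIs. RPE-like cells were 2.51% of WT cells with 3.27% of all UMIs, and they held 81.3% of *Mt1*, 81.3% of *Mt2* and 80.00% of *Mt3* UMIs. In ND6 they were 5.14% of cells with 2.68% of all UMIs, and they held 69.7% of *Mt1*, 63.00% of *Mt2* and 69.3% of *Mt3* UMIs. The RPE borders the neural retina, how much of it each dissection kept is not given in the labels, and its part in these shares was not tested. Bipolar-like cells held 4.17% of the WT and 9.59% of the ND6 *Mt1* UMIs. Rod-like cells, the most numerous class, held 6.78% in WT and 7.82% in ND6.

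**Figure D2:**
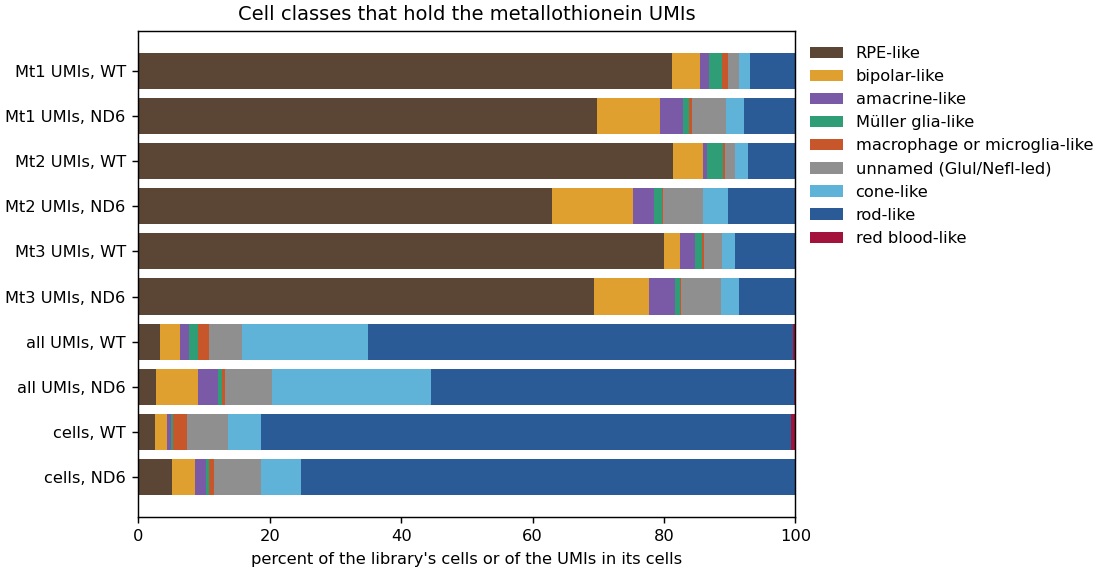
Share of the UMIs of *Mt1*, *Mt2* and *Mt3* in each cell class of each library, with the share of all UMIs and of cells below (x axis, percent of the library). Each bar adds up to 100%. RPE-like cells, in brown, take between 63.00% and 81.3% of the metallothionein UMIs but no more than 5.14% of the cells.

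Most single RPE-like cells held *Mt1*. After every cell was thinned to 400 UMIs, at least 1 *Mt1* UMI was found in 80% (75.2 to 84.3) of WT and 88.8% (86.6 to 90.7) of ND6 RPE-like cells (exact Clopper-Pearson intervals). Without thinning the shares were 89.5% at a median of 2708 UMIs and 97.2% at a median of 1103 UMIs. The thinned share of rod-like cells was 2.96% in WT and 3.34% in ND6. Bipolar-like cells lay between, with 27.9% and 26.8%.

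The level varied widely from one RPE-like cell to the next. The per-cell *Mt1* level had a 10th percentile of 0 CPM, a median of 10970.5 CPM and a 90th percentile of 22729.5 CPM in WT. In ND6 the same percentiles were 1632, 13169 and 25909 CPM. The highest cell reached 35010.2 CPM in WT and 48404 CPM in ND6, so the ranges overlapped. The median of *Mt2* was 1867 CPM in WT and 1561 CPM in ND6, and that of *Mt3* 2388 and 2010.0 CPM.

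The paralogs were used in similar proportion in RPE-like, bipolar-like and Müller glia-like cells. *Mt1* made up 72.5% of the UMIs of the 3 genes in WT and 76.3% in ND6 RPE-like cells, 76.5% and 74.1% in bipolar-like cells and 74.2% and 74.1% in Müller glia-like cells. Summed over the macrophage- or microglia-like cells, *Mt1* was at 90.1% (85.9 to 93.4) in WT and 88.2% (82.05 to 92.9) in ND6. These values lay above the interval of the RPE-like cells in each library, but the clusters of the class differed. The cluster led by *Ccl4* was at 96.7% in WT and 95.3% in ND6. The other cluster was at 75.3% (64.5 to 84.2) in WT and 83.1% (73.7 to 90.2) in ND6, intervals that held the RPE-like shares. The share of *Mt3* was below that of *Mt2* in bipolar-like cells (9.58% against 13.95% in WT, 10.9% against 14.96% in ND6), whereas in RPE-like cells *Mt3* exceeded *Mt2*.

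In bipolar-like and RPE-like cells the paralogs were also found together within single cells. In thinned ND6 bipolar-like cells, 26 of 639 held both *Mt1* and *Mt2*, where the separate counts of the genes would give 11.4 cells if they were independent. For *Mt1* and *Mt3* the count was 17 against 8.20. The WT bipolar-like cells gave 4 against 2.60 for *Mt1* and *Mt2*, too few to read. In WT RPE-like cells 92 of 315 held both *Mt2* and *Mt3* against 69 under independence, and in ND6 299 of 945 against 259. Other classes held few such cells, and some of their pairs lay below independence. In ND6 amacrine-like cells *Mt1* and *Mt3* gave 1 against 1.34, and in WT rod-like cells *Mt1* and *Mt2* gave 1 against 1.43. A class joins subtypes of unlike level and doublets were not removed, and their part was not separated here.

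Bipolar subtypes differed in *Mt1*. Cluster 19, whose leading markers were *Trpm1* and *Pcp2* of ON bipolar cells, had 1089 CPM (991 to 1194) in WT and 1448 CPM (1325 to 1579) in ND6, above the other 4 bipolar-like clusters in both libraries. These others ran from 293 to 662 CPM in WT and from 476 to 1149 CPM in ND6.

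Over the clusters with at least 50 cells in each library (18 clusters, 36 points), *Mt1* was most like *Mt2* (Pearson r = 0.97 of log2(CPM + 1)), and *Mt3* was close to *Mt1* (r = 0.96). Among the other genes with at least 500 UMIs, those most like *Mt1* were *Cd63* (r = 0.92), *Rlbp1* (r = 0.90), *Cnn3* (r = 0.89), *Gpnmb* (r = 0.87) and *Gstm5* (r = 0.87). *Rlbp1* encodes the retinaldehyde-binding protein of RPE and Müller glia, and *Gpnmb* a membrane glycoprotein of pigment cells. For *Mt2* they were *Cd63* (r = 0.91), *Gpnmb* (r = 0.90), *Rsph10b* (r = 0.89), *Cnn3* (r = 0.89) and *Fcor* (r = 0.89), and for *Mt3* they were *Rlbp1* (r = 0.90), *Gsta4* (r = 0.88), *Tmem56* (r = 0.88), *Dbi* (r = 0.88) and *Ndrg2* (r = 0.88). The points share libraries and include 1 RPE-like cluster that lies far above the rest, so these values are descriptions. Most of the clusters were rod-like or cone-like, and the Müller glia-like cluster, with 36 WT cells, was not among them.

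Free RNA was set beside the levels of the low classes. Barcodes of 10 to 100 UMIs, too few for a cell and taken here as free RNA, had 615 CPM (517 to 726) of *Mt1* in WT and 649.9 CPM (572 to 735) in ND6, above the rod-like and cone-like levels. *Mt2* stood at 88.4 and 110.5 CPM and *Mt3* at 88.4 and 92.5 CPM in the same barcodes. The *Mt1* levels of the macrophage- or microglia-like cells and of the unnamed cluster were also below those of these barcodes in both libraries. The amacrine-like level was below in ND6, and in WT its interval overlapped that of these barcodes. In bipolar-like and Müller glia-like cells the intervals of all 3 genes overlapped those of these barcodes in each library. *Mt1* made up 77.7% of the UMIs of the 3 genes in these barcodes in WT and 76.2% in ND6. No expression is read from the rod-like and cone-like levels, and the part of free RNA in the levels of the other classes was not tested. Among the rod-like clusters, *Mt1* ran from 27.7 CPM in a cluster with a median of 10029 UMIs to 109 CPM in one with a median of 1351 UMIs in WT. In ND6 it ran from 20.3 CPM at a median of 9012 UMIs to 121 CPM at 814 UMIs.

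The ratio of *Mt1* to the RPE markers was also set beside that of free RNA. For every 100 UMIs of the 8 RPE markers there were 35.5 *Mt1* UMIs in WT and 59.3 in ND6 barcodes of 10 to 100 UMIs. In bipolar-like cells the number was 733 and 257, in amacrine-like cells 379.8 and 182, and in Müller glia-like cells 1473 and 137. These rest on few RPE-marker UMIs, 148 in WT and 1000 in ND6 bipolar-like cells and 99 and 520 in amacrine-like cells. Müller glia-like cells held 33 in WT and 171 in ND6. For macrophage- or microglia-like cells the number was 230.1 in WT and 78.03 in ND6, on 103 and 173 RPE-marker UMIs. For the unnamed cluster it was 182 and 317, on 258 and 435. In rod-like cells the number was 54.5 and 81.5, and in cone-like cells 68.2 and 53.5. The part of free RNA in these ratios was not tested.

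Between the libraries, the level of *Mt1* over all cells was 477 CPM (471 to 483) in WT and 425 CPM (420.1 to 430.4) in ND6, a log2 ratio of ND6 over WT of -0.17 (-0.19 to -0.14). *Mt2* was 79.9 and 67.4 CPM, a log2 ratio of -0.24 (-0.31 to -0.18). *Mt3* was 103 and 71.7 CPM, a log2 ratio of -0.52 (-0.58 to -0.47). All 3 genes were thus lower in ND6, and 1 of the 3, *Mt3*, was lower by a log2 ratio of at least 0.5, as were 8.78% of the 15888 genes with at least 20 UMIs. The median log2 ratio of all these genes was 0.067.

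This direction did not hold outside the RPE-like cells. In all cells but the RPE-like cells, *Mt1* was 92.4 CPM in WT and 132 CPM in ND6, a log2 ratio of 0.52 (0.47 to 0.57). *Mt2* was 15.4 and 25.6 CPM, a log2 ratio of 0.73 (0.61 to 0.86). *Mt3* was 21.3 and 22.6 CPM, a log2 ratio of 0.084 (-0.030 to 0.20) whose interval spanned 0. *Mt1* and *Mt2* were higher by at least 0.5, as were 23.3% of genes, and none of the 3 was lower by it, as were 8.03% of genes. The direction over all cells also turned when each cell was given the same weight, to 1.10 for *Mt1*, 0.90 for *Mt2* and 0.70 for *Mt3*. RPE-like cells were the larger share of cells in ND6 and the larger share of UMIs in WT. Per RPE-like cell, the median was 2708 UMIs in WT and 1103 in ND6. Shares of all UMIs differed in other classes too, with bipolar-like cells at 3.13% in WT and 6.45% in ND6. Amacrine-like cells had 1.36% and 3.06%, and the unnamed cluster 5.02% and 7.06%. Müller glia-like cells had 1.37% and 0.53%, and macrophage- or microglia-like cells 1.58% and 0.51%. The part of these shares in the ratios outside the RPE-like cells was not tested.

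**Figure D3:**
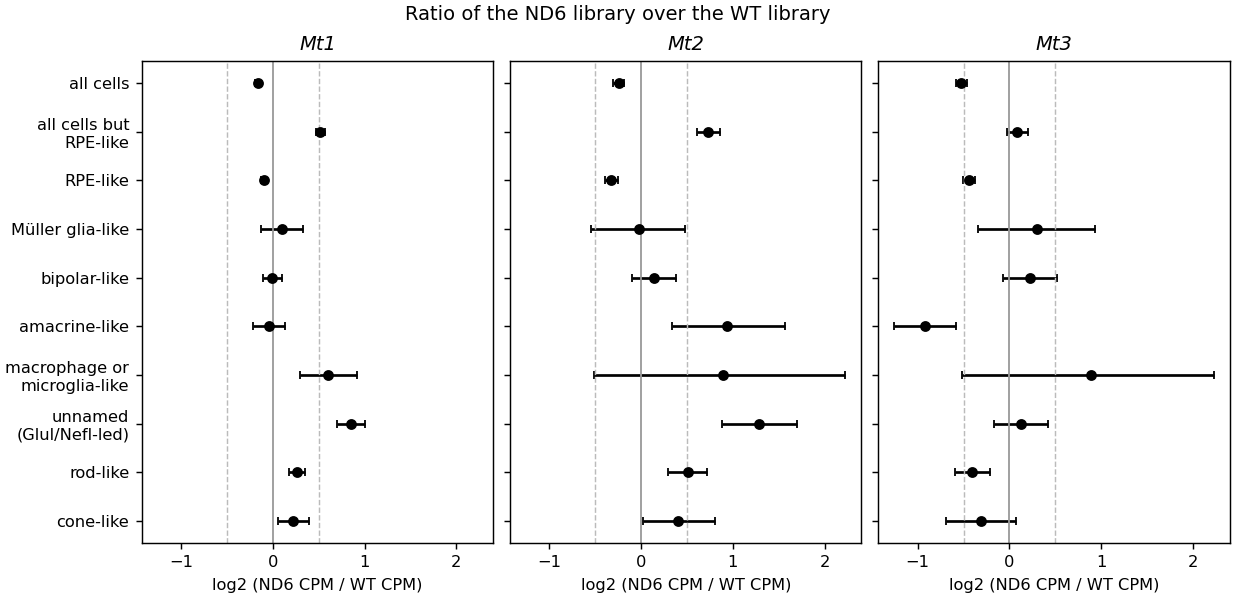
Log2 ratio of ND6 over WT of the CPM of summed UMIs (x axes) for *Mt1*, *Mt2* and *Mt3* in all cells and in each class (rows). Points are ratios of 2 libraries, bars are exact conditional 95% intervals of counting error, and dashed lines mark 0.5 in either direction. The summed *Mt1* ratio lies near 0 in RPE-like, Müller glia-like, bipolar-like and amacrine-like cells, whose clusters make up different shares of each library, and furthest to the right in the unnamed cluster.

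Within RPE-like cells the summed levels of all 3 genes were lower in ND6, and by less than 0.5. The log2 ratio of ND6 over WT was -0.099 (-0.13 to -0.071) for *Mt1*, -0.33 (-0.40 to -0.25) for *Mt2* and -0.44 (-0.51 to -0.38) for *Mt3*. Of all genes in these cells, 13.5% were lower and 13% higher by at least 0.5, with a median of -0.0044. The ratio rested on which RPE-like cells were compared. The deeper RPE-like cluster, with a median of 8436 UMIs in WT, held 94 WT cells and 4 ND6 cells. Without it, *Mt1* was 5639.9 CPM in the 221 WT cells and 10847 CPM in the 941 ND6 cells that were left, a log2 ratio of 0.94 (0.90 to 0.99). *Mt2* and *Mt3* turned likewise, to 0.45 (0.35 to 0.56) and 0.51 (0.41 to 0.61). The RPE markers were 2.94% of the UMIs of these WT cells and 5.64% of those of these ND6 cells. Per UMI of the RPE markers the same cells gave log2 ratios of 0.0038 for *Mt1*, -0.49 for *Mt2* and -0.43 for *Mt3*. Over all RPE-like cells the ratio of *Mt1* was also above 0 as the mean over cells (0.30) and with cells thinned to 400 UMIs (0.27), while *Mt3* stayed below 0 (-0.040 and -0.12).

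Depth and marker content of the RPE-like cells moved with this result. In WT the *Mt1* level was higher in deeper cells, from 6945 CPM in 61 cells of fewer than 1000 UMIs to 12234 CPM in 105 cells of 5000 or more. In ND6 it was 15409 CPM in 427 cells of fewer than 1000 UMIs and 5511 CPM in 54 cells of 5000 or more. The RPE markers changed in step, at 3.44% and 6.67% of UMIs in these WT cells and 7.91% and 3.19% in these ND6 cells. The rod markers were 4.92% of UMIs in the deepest ND6 cells and 1.79% in the shallowest.

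Relative to the RPE markers, *Mt1* was nearly level. It stood between 18.3 and 20.8 UMIs per 100 RPE-marker UMIs over the depth ranges of WT cells, and between 17.3 and 19.9 in ND6. Over all RPE-like cells it was 18.5 in WT and 19.3 in ND6, a log2 ratio of 0.059. *Mt2* was 3.11 and 2.77, and *Mt3* was 3.94 and 3.24, log2 ratios of -0.17 and -0.28. On this scale *Mt3* remained the lowest of the 3 ratios over all RPE-like cells. The scale takes the markers as its base. *Rpe65* is among them, and the study reported more RPE65 protein in mutant retina. Whether the RNA of the markers differed within RPE cells was not tested.

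**Figure D4:**
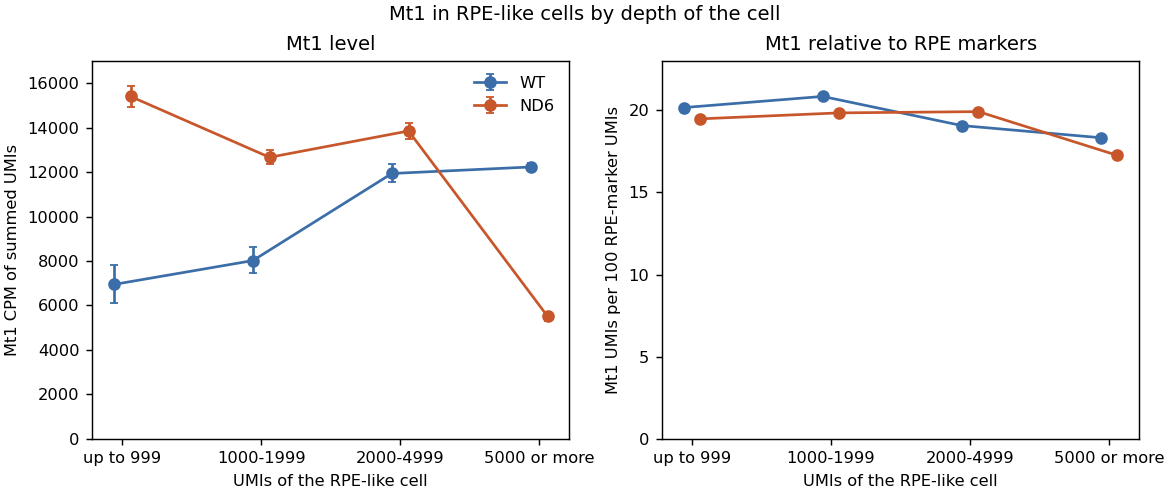
*Mt1* in RPE-like cells grouped by the UMIs of the cell (x axes), as CPM of summed UMIs with exact 95% Poisson intervals (left) and per 100 UMIs of the 8 RPE markers (right), in WT (blue) and ND6 (orange). The level crosses between the libraries with depth, while the values on the right stay between 17.3 and 20.8.

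**Figure D5:**
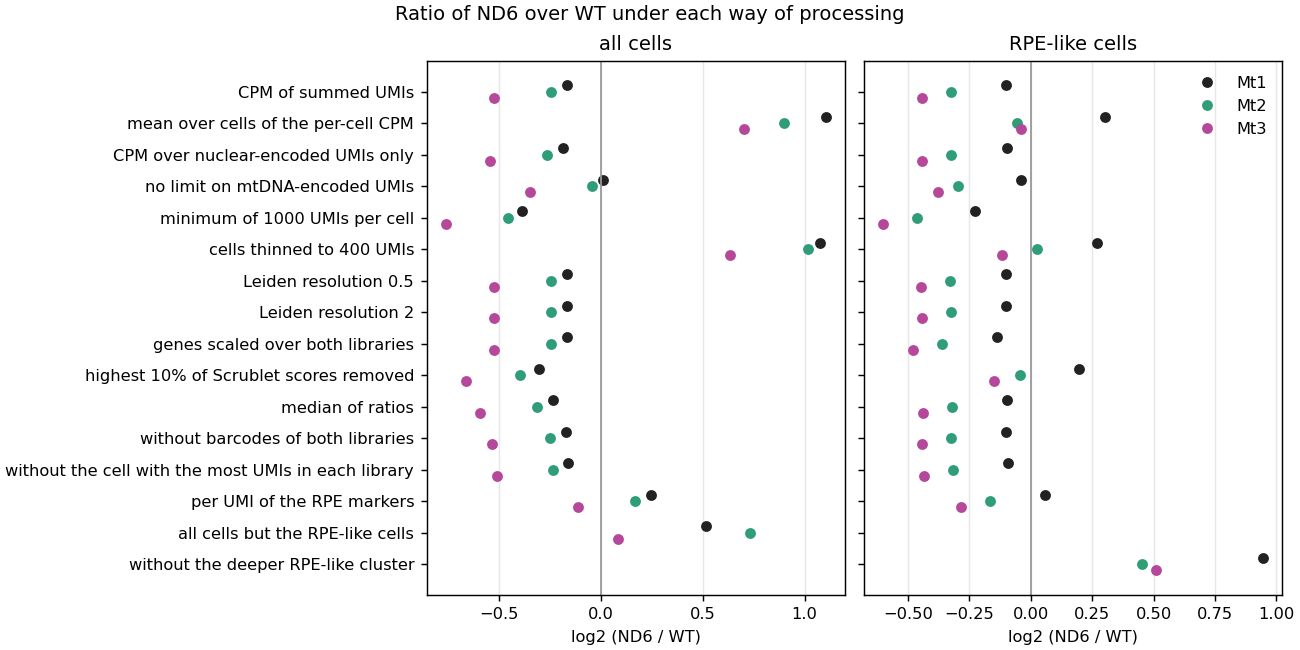
Log2 ratio of ND6 over WT (x axes) of *Mt1*, *Mt2* and *Mt3* in all cells (left) and RPE-like cells (right) under each way of processing (rows), 1 point per gene and setting. *Mt1* over all cells runs from -0.39 with a minimum of 1000 UMIs per cell to 1.10 as the mean over cells.

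Summed over each inner retinal class, the ratio of *Mt1* was near 0, but the clusters within the classes differed. The summed ratio was -0.0077 (-0.11 to 0.096) in bipolar-like, -0.045 (-0.22 to 0.13) in amacrine-like and 0.099 (-0.13 to 0.33) in Müller glia-like cells. Of the 5 bipolar-like clusters, 4 were higher in ND6, at 0.41 (0.23 to 0.60) in cluster 19, 0.73 (0.38 to 1.10) in cluster 18, 0.80 (0.40 to 1.21) in cluster 24 and 1.09 (0.62 to 1.59) in cluster 21, and cluster 13 was lower, at -0.23 (-0.39 to -0.065). Cluster 19, with the highest level, held 69 of the 233 WT and 52 of the 639 ND6 bipolar-like cells. Of the amacrine-like clusters, cluster 16 gave 0.19 (-0.0072 to 0.40) and cluster 17 gave -0.72 (-1.07 to -0.36), and cluster 17 held 16 of 79 WT and 172 of 311 ND6 cells. As the mean over cells, the amacrine-like ratio was -0.49. *Mt2* and *Mt3* of bipolar-like cells gave 0.14 (-0.10 to 0.38) and 0.22 (-0.066 to 0.51). None of the 3 genes passed 0.5 in bipolar-like cells, where 17.4% of genes were higher and 6.71% lower by it, or in Müller glia-like cells, where 16.1% were higher and 22.4% lower. In amacrine-like cells *Mt2* was higher in ND6, at 0.93 (0.34 to 1.57) on 28 and 139 UMIs, and *Mt3* lower, at -0.92 (-1.25 to -0.59). Of genes in these cells 22.8% were higher and 13.9% lower by at least 0.5, and without the cell with the most UMIs in each library the *Mt3* ratio was -0.37. The 36 WT and 84 ND6 Müller glia-like cells had medians of 10130 and 1759 UMIs, so their comparison joins cells of unlike depth. One cell held 20.6% of the WT and another 24.3% of the ND6 *Mt1* UMIs of this class. As the mean over cells, *Mt1* was 1110.3 CPM in WT and 647 CPM in ND6, a log2 ratio of -0.78. The ratio was -0.89 with genes scaled over both libraries. With no mtDNA limit it was 0.45, but there the class was mostly other cells. It then took in a cluster of 1971 WT and 1566 ND6 cells led by *Bc1*, *Nefl* and *Glul*. The direction in Müller glia-like cells therefore depended on the processing and on which cells the class held.

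Higher values of *Mt1* in ND6 were found in the macrophage- or microglia-like cells, at 0.61 (0.29 to 0.92), and in the unnamed cluster, at 0.85 (0.70 to 1.01). Both had CPM levels below free RNA in each library. Relative to the RPE markers, however, both held more *Mt1* than free RNA in each library, and the part of free RNA was not tested. In the macrophage- or microglia-like cells 1 cell held 17.04% of the 135 ND6 *Mt1* UMIs and 1 held 10.5% of the 237 WT UMIs. Leaving out these cells gave a ratio of 0.49. RPE markers were 0.0120% of UMIs in WT and 0.0537% in ND6 cells of this class, and their part in the ratio was not tested. Of the 2 clusters of this class, the one led by *Ccl4* and *Ccl3* had 455 CPM in WT and 465 CPM in ND6, and the other had 129 and 387 CPM. By the fold of 0.5, all 3 genes were higher in this class, where 19.5% of genes were and 19.9% were lower, but *Mt2* and *Mt3* held 22 UMIs each over both libraries and their intervals ran from -0.52 to 2.23.

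In the unnamed cluster *Mt2* was also higher in ND6, at 23.8 and 57.8 CPM and a log2 ratio of 1.28 (0.89 to 1.70), and *Mt3* was 56.3 and 61.4 CPM, a ratio of 0.13 (-0.16 to 0.42). There 22.4% of genes were higher and 7.17% lower by at least 0.5. Its Müller glia markers summed to 1444 CPM in WT and 3043 CPM in ND6 and its bipolar markers to 86.99 and 304 CPM, so markers of classes with more *Mt1* moved the same way, and their part was not tested. The median of the cells was 1972 UMIs in WT and 1932 in ND6.

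Rod-like and cone-like cells, whose levels lay below free RNA, gave *Mt1* ratios of 0.26 (0.17 to 0.36) and 0.22 (0.050 to 0.40). *Mt2* was at 0.51 (0.29 to 0.72) in rod-like cells, just past 0.5 where 19.8% of genes were higher and 7.96% lower, and *Mt3* was at -0.40 (-0.60 to -0.21). In cone-like cells none of the 3 passed 0.5, where 12.4% of genes were higher and 7.85% lower. No change in expression is read from these values.

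The genes that handle zinc were set beside the metallothioneins. Zinc exporters of the SLC30 family take zinc out of the cytosol, and SLC39 importers bring it in. Over all cells, 8 of 10 exporters had at least 20 UMIs, of which 2 (*Slc30a2* and *Slc30a3*) were higher and 0 lower in ND6 by at least 0.5, with a median log2 ratio of 0.023. Of 13 of 14 importers, 2 (*Slc39a1* and *Slc39a2*) were higher and 2 (*Slc39a4* and *Slc39a12*) lower, and the median was 0.044. Of all genes, 21.6% were higher and 8.78% lower, and their median was 0.067, so the zinc counts are not read as particular to these genes. *Slc30a1*, the plasma membrane exporter that is itself an MTF-1 target, was 30.9 CPM in WT and 24.3 CPM in ND6 in RPE-like cells, a log2 ratio of -0.34 (-0.96 to 0.27). *Mtf1* itself was 24.1 CPM in WT and 21.4 CPM in ND6 there, a log2 ratio of -0.18 (-0.86 to 0.50), and 44.6 CPM in WT and 43.9 CPM in ND6 over all cells.

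In RPE-like cells 0 of 6 exporters tested were higher and 1 (*Slc30a7*) lower, and 2 of 10 importers were higher (*Slc39a1* and *Slc39a10*) and 1 (*Slc39a4*) lower. In WT the highest of them by level was the importer *Slc39a12*, at 85.3 CPM in WT and 62.9 CPM in ND6, a log2 ratio of -0.44 (-0.81 to -0.072). In copper handling, 4 of 11 genes were higher and 2 lower in RPE-like cells. Of all genes in these cells 13% were higher and 13.5% lower, the background for the zinc, copper, iron, glucocorticoid, STAT3 and dissociation lists alike. The copper importer *Slc31a1* was 69.03 CPM in WT and 41.5 CPM in ND6 (log2 ratio -0.73, -1.18 to -0.30), and *Sod1*, the copper- and zinc-binding superoxide dismutase, was 242 CPM in WT and 167 CPM in ND6 (log2 ratio -0.53, -0.75 to -0.31). *Slc31a2* went the other way, with 83.6 CPM in WT and 133 CPM in ND6 (log2 ratio 0.67, 0.36 to 0.98). Over all cells 0 of 11 copper genes passed 0.5 in either direction, where 21.6% of all genes were higher and 8.78% lower by it.

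No gene of the iron list passed 0.5 over all cells or in RPE-like cells. Over all cells it was 0 of 6 genes, where 21.6% of all genes were higher and 8.78% lower by it. The median of the list was 0.22 against 0.067 for all genes. The transferrin receptor *Tfrc* was at 0.48 (0.43 to 0.54), *Fth1* at 0.39 (0.37 to 0.40), the iron transporter *Slc11a2* at 0.26 (0.15 to 0.38) and *Trf* at -0.24 (-0.26 to -0.21). In RPE-like cells 0 of 5 genes passed 0.5. The ferritin heavy chain *Fth1*, which stores iron, was 3540.1 CPM in WT and 3893 CPM in ND6, a log2 ratio of 0.14 (0.087 to 0.19), and transferrin, *Trf*, 14550.5 CPM in WT and 14751 CPM in ND6, a ratio of 0.020 (-0.0054 to 0.045).

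Other known inducers of metallothioneins were set beside them. Of the glucocorticoid-induced list, 1 of 6 tested genes, the co-chaperone *Fkbp5*, was higher in RPE-like cells (log2 ratio 1.45, 0.45 to 2.55, on 12 and 31 UMIs) and 1, the kinase *Sgk1*, lower (log2 ratio -0.51, -0.62 to -0.40). Of the STAT3 and cytokine list, 1 of 5, *Cebpd*, was lower, and the oncostatin M receptor *Osmr* was 116 CPM in WT and 93.2 CPM in ND6 (log2 ratio -0.32, -0.63 to -0.012). Over all cells 1 of 8 glucocorticoid-induced genes (*Glul*) was higher and 2 (*Sgk1* and *Cdkn1a*) were lower, and the median ratio was -0.081. Of 9 genes of the STAT3 and cytokine list, 2 (*Lcn2* and *Gfap*) were higher and 5 lower, and their median ratio was -0.52. Beside both lists, 21.6% of all genes were higher and 8.78% lower. Without RPE-like cells the median of the STAT3 and cytokine list was -0.091. By class its median ran from -1.71 in Müller glia-like cells to 0.55 in amacrine-like cells. The list of genes that cell dissociation induces, such as *Fos*, *Egr1* and heat shock genes, moved furthest over all cells. Over all cells 12 of 13 of its genes were lower in ND6 by at least 0.5, against 8.78% of all genes, with a median of -1.12. In RPE-like cells it was 6 of 12, with a median of -0.59. The part of dissociation in the metallothionein ratios was not tested.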

How the data were processed

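Single-cell RNA libraries were prepared from dissociated retina with the 10x Genomics Chromium 3′ kit, and 1 WT and 1 ND6 library were analysed. Per the labels and the submitters' processing notes, reads were aligned to mm10 with Cell Ranger (version 3.0.2), and the annotation release is not given in the sources used here. The deposited matrices hold raw counts of UMIs per gene and barcode, which the authors had not normalized, and gene and barcode names were read beside them. The libraries held 77958836 (WT) and 80358255 (ND6) UMIs over all barcodes.

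A barcode was kept as a cell above 400 UMIs and 200 genes if mtDNA-encoded UMIs made up no more than 20%. Cells were clustered on 3000 variable genes (30 principal components, 20 neighbours, Leiden resolution 1; scanpy 1.11.5, leidenalg 0.10.2), without the metallothioneins, the mtDNA-encoded genes and the listed genes. A cluster of at least 20 cells was named where at least 3, and no less than 50%, of a class's markers were raised at least 2-fold (20 CPM added to both) and its markers led the other classes' among the top 10 genes. Rod-like clusters were named against the other named non-cone clusters. This naming rule was settled after the clusters had been seen. Scrublet marked 0 cells of either library as doublets, so it had not worked, and doublets were not removed.

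Levels are UMIs summed over the cells of a class per 1000000 of their UMIs, with exact Poisson intervals, shares have Clopper-Pearson intervals, and log2 ratios have exact conditional intervals at 95%. Ratios and thinning were checked on simulated data. With 1 library per genotype no p-value is given. A log2 ratio of 0.5 counts as past the fold where a gene had 20 or more UMIs in the libraries together. The genes named are the members, *Mt4*, the listed genes and, for each member, the 5 genes of most similar pattern over clusters. The members, lists and markers were chosen with earlier results of these data known. Alternatives covered the weighting of cells, the scale, the filters on cells and genes, depth, clustering and doublet scores. Sequences came from GENCODE M21 and RefSeq (GRCm38.p6), where all 3 genes matched by identifier or symbol. Protein sequences were not used here.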

Additional observations from a re-analysis of the deposited data

Results flagged for a closer look

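Barcodes above the limit of 20% mtDNA-encoded UMIs, which the main comparisons left out, had higher metallothionein CPM in the ND6 library than in the WT library. They were 10647 barcodes with a median of 1014 UMIs in WT and 3861 with a median of 791 UMIs in ND6. *Mt1* was 251 CPM (243 to 259.9) and 612 CPM (589.9 to 635), a log2 ratio of 1.29 (1.21 to 1.36). *Mt2* was 40.3 and 107 CPM, a ratio of 1.41 (1.23 to 1.59), and *Mt3* was 72.97 and 141 CPM, a ratio of 0.95 (0.81 to 1.10). The RPE markers were 0.0425% of UMIs in the WT and 0.0625% in the ND6 barcodes, and per 100 RPE-marker UMIs *Mt1* was 59.04 and 98.01. The rod markers were 4.17% of UMIs in the WT and 2.82% in the ND6 barcodes. Whether these barcodes hold RPE fragments or other cell types in unequal number was not tested.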

How the results depend on the processing

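No paired analysis was possible because each genotype had 1 library, so the groups share 1 replicate number. Of 269 log2 ratios recomputed under the settings other than the 5 chosen after seeing the data, 207 stayed within their counting interval, 50 left it and 12 with an interval off 0 changed sign. Of 66 under those 5, 53 stayed, 4 left it and 9 changed sign. Over all cells, in the order *Mt1*, *Mt2*, *Mt3*, the log2 ratio of ND6 over WT was 1.10, 0.90, 0.70 for the mean over cells, 1.08, 1.02, 0.63 with cells thinned to 400 UMIs, 0.014, -0.044, -0.35 with no mtDNA limit, -0.39, -0.46, -0.76 from 1000 UMIs per cell, -0.30, -0.39, -0.66 without the highest 10% of Scrublet scores and -0.23, -0.31, -0.59 by the median of ratios. Chosen after seeing the data, it was 0.25, 0.17, -0.11 per UMI of the RPE markers and 0.52, 0.73, 0.084 without RPE-like cells. In RPE-like cells it was 0.30, -0.057, -0.040 for the mean over cells, 0.27, 0.025, -0.12 thinned, -0.23, -0.46, -0.60 from 1000 UMIs, 0.20, -0.043, -0.15 without the highest Scrublet scores, 0.059, -0.17, -0.28 per RPE-marker UMI and 0.94, 0.45, 0.51 without the deeper cluster. For *Mt1* there it was also -0.041 with no mtDNA limit and -0.14 with genes scaled over both libraries. The ratio of *Mt3* in amacrine-like cells turned to 0.14 thinned. The cause of these changes was not tested.

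The *Mt1* level in RPE-like cells, WT then ND6, was 11161 and 13745 CPM as the mean over cells, 12509 and 11691 over nuclear UMIs, 10962 and 10652 with no mtDNA limit, 11444 and 13804 thinned, 15264 and 17510.4 without the highest Scrublet scores, 5639.9 and 10847 without the deeper cluster, and 10232 in ND6 from 1000 UMIs. The share of these cells with an *Mt1* UMI, thinned again, was 79.7% and 88.99%, and 78.6% in WT with no mtDNA limit. RPE-like cells held the highest level of each gene in each library under each of these settings that was applied to all classes. Depth limits the comparison in amacrine-like, Müller glia-like and macrophage- or microglia-like cells, where *Mt2* and *Mt3* rest on 9 to 180 UMIs per library.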

Other observations

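Counted over all barcodes, cells or not, *Mt1* was 439 CPM in WT and 473 CPM in ND6, so the order of the libraries was the reverse of that over cells. *Mt2* was 71.8 and 76.4 CPM and *Mt3* 99.5 and 82.5 CPM. In barcodes of 101 to 200 UMIs *Mt3* stood at 152 CPM in WT and 95.98 CPM in ND6, a log2 ratio of -0.66 (-0.87 to -0.45), while *Mt1* gave -0.094 (-0.19 to 0.0049) there.

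Without the RPE-like cluster, over 17 clusters and 34 points, the genes of most similar pattern to *Mt1* were *Trnp1* (r = 0.96), *Gstm5* (r = 0.94) and *Pcp4* (r = 0.94). *Pcp4* encodes a calmodulin-binding peptide of neurons. For *Mt2* they were *Trnp1* (r = 0.98), *Pcp2* (r = 0.95) and *Tox2* (r = 0.94). These genes were picked after their values were seen, and the values are descriptions over clusters that share libraries. Most of those clusters were rod-like or cone-like, classes from whose levels no expression is read.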
